A study of Mus musculus with 10 samples.

Results

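The p53 target genes described here are 33 mouse genes chosen by symbol: Trp53, which encodes the transcription factor p53, and genes that p53 is known to switch on or that hold p53 in check. They were 33 of 47311 genes in the tables, and all 33 passed the expression filter that left 17810 genes for testing. The sequenced polyA RNA came from mouse bone marrow cells labelled Lin-Kit+, that is, lacking markers of mature blood lineages and carrying the KIT receptor. Cells of the mutant groups over-expressed Mutant1, Mutant2 or Mutant3 Asxl2, cells of the next group over-expressed full-length (WT) Asxl2, and control cells carried the empty vector. ASXL2 is a chromatin protein that partners with the histone deubiquitinase BAP1. In every group, controls included, GFP-positive cells were sorted and expanded in serum-containing medium with IL3, IL6 and SCF before RNA was taken. The sources used here do not give the vector's promoter, the positions of the mutations, or the age and strain of the mice. Each of the 5 groups had 2 libraries, so that the pooled mutants comprised 6 libraries, full-length ASXL2 comprised 2 and the empty vector comprised 2. Nothing in the labels ties the 2 libraries of a group to separate cultures or mice, and every p-value below therefore reflects library-to-library spread that may be technical.

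The labels assign each library to batch 1 or batch 2, and so do the names of the deposited tables. The name gives another batch than the label for mutant 1 replicate 2 and mutant 3 replicate 1. It gives another mutant number for those 2 and for both replicates of mutant 2. The mutants were therefore pooled, libraries are called by their labels, and the batch in the deposited names, with 3 mutant, 1 full-length and 1 empty vector library in each of the 2 batches, entered every comparison as a block. Estimated counts per library lay between 52422686 and 79320702. Asxl2 itself had 790 to 1892 CPM (counts scaled to library size, here by the TMM method) in the mutant libraries, 1384 and 992 in the full-length libraries and 107 and 111 in the empty vector libraries. All 12 listed mast cell and basophil markers were above 1 TPM (a length-scaled share of all transcripts), and together they made up 57656 to 64399 TPM in mutant, 57791 and 69936 in full-length and 63859 to 65549 in empty vector libraries. Of 10 stem and progenitor markers 6 were above 1 TPM, and of 8 lymphoid markers 0 were. The 6 include Kit and Gata2, which are in the mast cell list too. The summed neutrophil markers, of which 2 of 10 were above 1 TPM, varied most, from 5.97 to 404 TPM among mutant libraries, 28.4 and 297 TPM in full-length libraries and 67.7 and 385 TPM in empty vector libraries. The summed monocyte markers stayed between 20.3 and 38.1 TPM over all groups. Between the pooled mutants and the empty vector, the markers past the threshold were Hdc, Procr, Klf1, Epor and Il7r, which were higher in mutants, and Cd34 and Ccr2, which were lower, and the part of cell makeup in the results below was not tested. In such bulk RNA, fewer cells of a type cannot be told apart from less RNA per cell.

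The p53 protein is a DNA-binding factor that accumulates after DNA damage, oncogene activity or other stress. It is kept low by MDM2, a ubiquitin ligase whose gene p53 itself switches on, which closes a feedback loop. Its targets halt the cell cycle (p21, encoded by Cdkn1a), release mitochondrial death factors (BAX, PUMA, NOXA), pass on death receptor signals (FAS) and assist DNA repair (XPC, DDB2). In blood stem and progenitor cells, p53 activity is known to limit self-renewal and to remove damaged cells.

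RefSeq promoter windows of the GRCm38.p6 build, from 250 bases before to 50 bases after an annotated start, were found for 25 of the 33 genes (37 windows). Pmaip1, Perp, Zmat3, Trp53inp1, Tnfrsf10b, Xpc, Ddb2 and Rrm2b had none here. The p53 half-site consensus, searched on both strands, occurred in 11 of these 37 windows (29.7%), against 2745 of all 32851 windows (8.36%). Counted by gene, 10 of the 25 genes held it, against 9.55% of all 27025 genes with a window. The 10 were Trp53, Mdm2, Ppm1d, Ccng1, Cdkn1a, Bax, Aen, Ei24, Sesn1 and Polk. The Aen windows overlap and hold the same site, which the count by window includes for each. The full site, made of 2 half-sites with at most 13 bases between them, was found in 1 member window, at Cdkn1a, against 24 of all windows (0.0731%). The other Cdkn1a window, chr17:29093519-29093818, held 0 half-sites. A match describes letters, not binding, and sites farther from the start, such as those in introns, lie outside these windows. Of the 10 genes that were lower in mutants than in the empty vector (described below), 7 had a window and 5 of these held a half-site. Of the 4 genes that were higher, which include Pmaip1, 2 had a window searched here and 0 of these held a half-site. Of the 19 that did not pass the test, 16 had a window and 5 held a half-site. Printed here is 1 window each of the best-known target, of 3 genes that fell in the mutants, and of the gene with the largest rise. Each reads 5′ to 3′ on the gene's strand, and capitals mark half-sites.
Cdkn1a, chr17:29090729-29091028, plus strand: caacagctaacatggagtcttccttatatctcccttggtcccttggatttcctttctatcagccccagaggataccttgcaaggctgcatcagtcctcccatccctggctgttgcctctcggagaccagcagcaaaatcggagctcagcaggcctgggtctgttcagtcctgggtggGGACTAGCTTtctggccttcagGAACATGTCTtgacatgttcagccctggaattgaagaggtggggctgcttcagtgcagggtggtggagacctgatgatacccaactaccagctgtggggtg
Mdm2, chr10:117710709-117711008, minus strand: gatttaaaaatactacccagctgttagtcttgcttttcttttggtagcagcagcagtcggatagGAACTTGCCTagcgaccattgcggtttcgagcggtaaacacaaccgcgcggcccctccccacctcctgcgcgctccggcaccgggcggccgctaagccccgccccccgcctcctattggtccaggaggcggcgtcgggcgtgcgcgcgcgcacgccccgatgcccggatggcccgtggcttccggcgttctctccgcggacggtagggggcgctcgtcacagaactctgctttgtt
Ccng1, chr11:40755237-40755536, minus strand: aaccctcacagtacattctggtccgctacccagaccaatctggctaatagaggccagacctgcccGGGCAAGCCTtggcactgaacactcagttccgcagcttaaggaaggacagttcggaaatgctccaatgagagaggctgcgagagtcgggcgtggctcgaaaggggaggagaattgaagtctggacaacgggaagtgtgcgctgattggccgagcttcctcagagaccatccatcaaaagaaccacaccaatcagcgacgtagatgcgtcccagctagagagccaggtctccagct
Aen, chr7:78895677-78895976, plus strand: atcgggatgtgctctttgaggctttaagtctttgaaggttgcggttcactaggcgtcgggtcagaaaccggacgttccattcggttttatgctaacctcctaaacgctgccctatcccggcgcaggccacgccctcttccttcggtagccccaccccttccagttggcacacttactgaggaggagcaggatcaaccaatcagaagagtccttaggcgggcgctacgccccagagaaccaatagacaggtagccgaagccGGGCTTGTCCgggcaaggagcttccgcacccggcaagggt
Trp53i11, chr2:93187298-93187597, plus strand, no match: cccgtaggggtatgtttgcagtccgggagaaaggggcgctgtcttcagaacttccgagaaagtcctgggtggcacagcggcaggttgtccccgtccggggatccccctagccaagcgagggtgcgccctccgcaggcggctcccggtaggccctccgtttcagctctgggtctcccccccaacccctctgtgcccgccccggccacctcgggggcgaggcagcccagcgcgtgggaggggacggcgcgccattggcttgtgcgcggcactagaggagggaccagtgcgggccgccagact

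On the TPM scale, which allows genes to be compared, the most abundant of the 33 genes was Bax, with a mean of 273 TPM over the 10 libraries, followed by Cdkn1a with 188, Trp53 with 87.0, Bbc3 with 75.1 and Ccng1 with 70.5 TPM. The library ranges of Bax (232 to 345 TPM) and Cdkn1a (157 to 228 TPM) did not overlap, and that of Cdkn1a lay above that of Trp53 (72.7 to 113 TPM). Trp53, Bbc3 (57.8 to 94.5 TPM) and Ccng1 (53.7 to 90.1 TPM) overlapped in level. At the other end, Plk2 averaged 0.199 TPM, Perp 0.408, Dram1 1.30 and Trp53i11 2.08 TPM. Counting error is large for such genes: Perp had 8 to 77 estimated counts per library, Plk2 13 to 38 and Dram1 27 to 45. Exons of 6 of the 33 genes overlap exons of another gene in the annotation (Cdkn1a, Plk3, Bax, Ei24, Ddb2 and Rrm2b). For all of these except Bax the other gene lies on the opposite strand, and since the strand setting of the counting is not given, reads from the pair cannot be told apart.

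In cells with mutant ASXL2, most p53 target genes that moved were modestly lower than with the empty vector, while 1 gene, Trp53i11, was several times higher. Lower were Trp53, its feedback regulators Mdm2 and Ccng1, the death receptor genes Eda2r and Tnfrsf10b, and Aen, Zmat3, Ei24, Psrc1 and Xpc. Higher, beside Trp53i11, were Btg2, Pmaip1 and Rrm2b. In all, 10 of 33 fell and 4 rose (edgeR's quasi-likelihood test, adjusted p under 0.05 over all 17810 genes), where 3.99% of all genes tested fell and 6.82% rose (10.8% in either direction). The median log2 fold change over the 33 genes was -0.18, against -0.01 over all genes tested, and 23 of the 33 values were negative. All 3 mutant libraries lay below the empty vector library in both batches for 16 of the 33 genes (15.1% of all genes tested) and above it in both for 5 (16.6%). The count rests on the block by the batch of the deposited names, on the scale and test, and on the empty vector libraries. DESeq2 with the same block called 4 of the 33 genes higher and 14 lower, beside 8.55% and 6.5% of all genes. The genes it called beyond those of edgeR were Cdkn1a, Mdm4, Phlda3 and Ak1, all lower. With limma on log2(TPM + 1) and the same block 2 genes passed, Trp53i11 and Eda2r, where 2.32% of all genes rose and 1.65% fell. With limma on log2(TPM + 0.1) Aen passed beside these, where 2.89% of all genes rose and 1.77% fell. With the batch of the labels as the replicate block, or with no replicate block, 2 genes passed, Trp53i11 and Eda2r. Of all 17810 genes, 335 passed with the batch of the labels and 311 with no replicate block. Without empty vector replicate 1, 3 passed (these 2 and Xpc), and without empty vector replicate 2, 9 did (Trp53i11, Pmaip1, Rrm2b, Eda2r, Trp53, Ccng1, Psrc1, Aen and Tnfrsf10b). Leaving out any other single library left 11 to 15. Mdm2 and Ei24 were also lost without mutant 1 replicate 1, mutant 1 replicate 2 or mutant 3 replicate 2. Without the 4 libraries whose name and label give different mutant numbers, 4 passed, beside 567 of all 17317 genes then tested. The 4 were Trp53i11, Btg2, Eda2r and Gdf15.

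**Figure D1:**
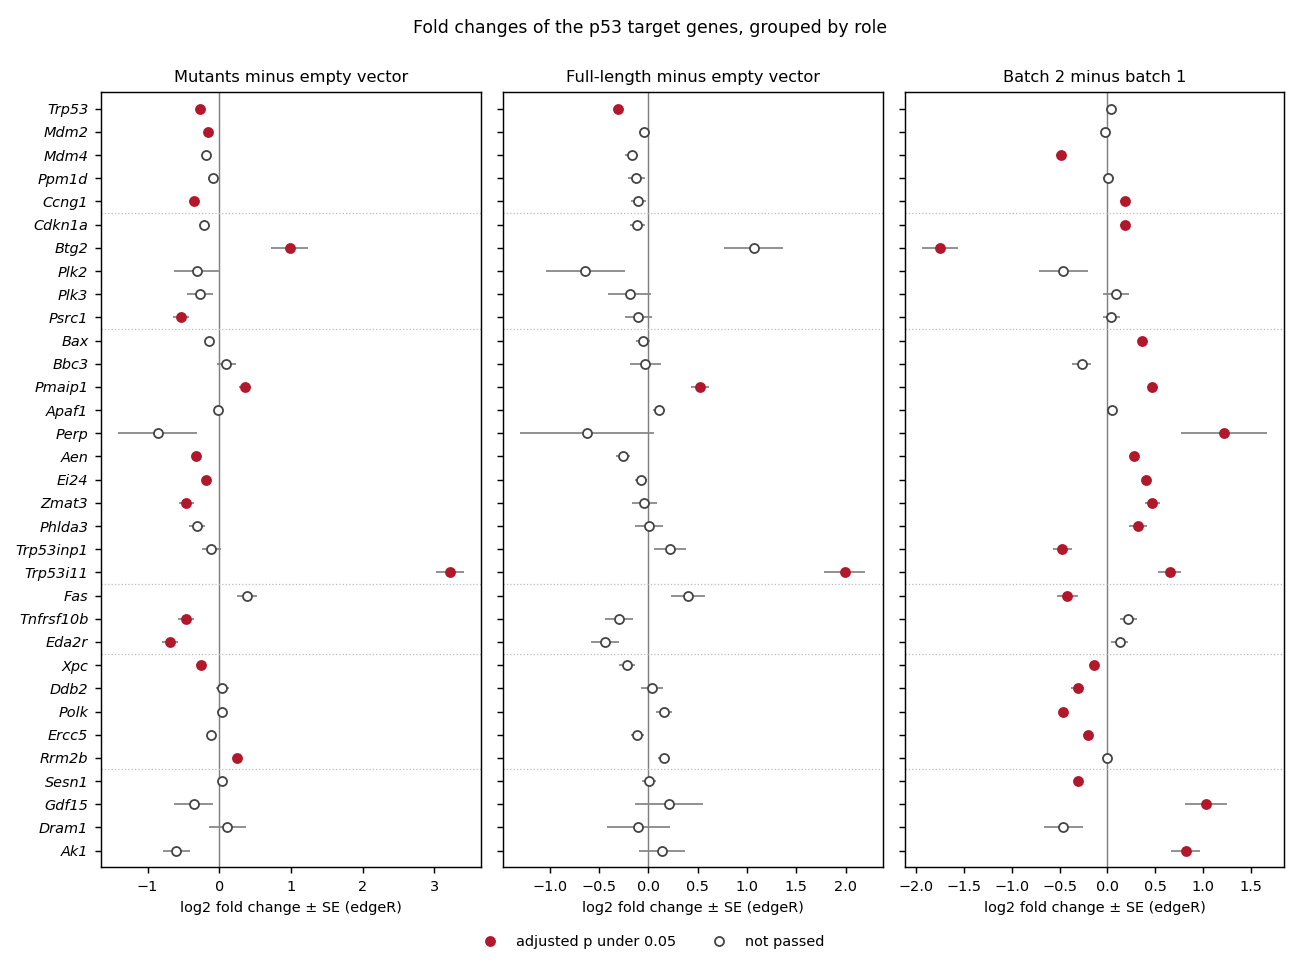
Log2 fold change ± SE of each of the 33 genes (rows, grouped by role with dotted lines) in 3 comparisons, fitted with edgeR on all 10 libraries. Filled red points passed an adjusted p of 0.05. Trp53i11 stands at 3.22 for mutants against the empty vector and at 1.99 for full-length ASXL2, while most other points lie within 1 unit of 0; horizontal scales differ between panels.

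Of the 5 genes for p53 and its feedback regulators, 3 fell in the mutants, 0 rose and 2 did not pass, and all 5 values were negative. Trp53 (chr11:69580359-69591873) had 107 CPM in the lowest, 111 in the median and 114 in the highest mutant library, 106 and 109 CPM in the full-length libraries, and 136 and 130 CPM in the empty vector libraries. Every library with an ASXL2 construct, mutant or full-length, was below both empty vector libraries. The log2 fold change of mutants against the empty vector was -0.27 ± 0.04 (SE; edgeR adjusted p = 0.00321). Mdm2, the ligase that degrades p53, had 80.2, 84.7 and 87.2 CPM (lowest, median, highest) in mutant, 89.9 and 94.2 in full-length and 95.5 and 93.6 in empty vector libraries. Mutant values were below those of both other groups in CPM. In TPM the groups overlapped, at 43.2 to 57.7 in mutant, 54.1 and 57.0 in full-length and 51.9 and 64.0 in empty vector libraries. The log2 fold change of Mdm2 against the empty vector was small at -0.16 ± 0.04 (edgeR adjusted p = 0.0364) and passed in 9 of 21 alternatives. Ccng1, which encodes cyclin G1, a partner of the phosphatase PP2A that acts on MDM2, had 158, 167 and 192 CPM in mutant, 180 and 232 in full-length and 206 and 231 in empty vector libraries. All mutant libraries were below both empty vector libraries. Full-length differed from the empty vector of its batch by -0.2 in batch 1 and 0.0 in batch 2 on the log2 scale. The log2 fold change of Ccng1 in mutants against the empty vector was -0.36 ± 0.07 (edgeR adjusted p = 0.00634). Mutants against full-length did not pass (edgeR adjusted p = 0.127). Mdm4, a p53-binding relative of MDM2, and Ppm1d, a phosphatase that dampens p53 signalling, had log2 fold changes of -0.18 and -0.09 and did not pass.

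Among the 5 cell cycle brakes, 1 rose, 1 fell and 3 did not pass. Cdkn1a, the gene for the cyclin-dependent kinase inhibitor p21, had 204, 221 and 274 CPM (lowest, median, highest) in mutant, 234 and 256 in full-length and 255 and 275 in empty vector libraries. The groups overlapped through mutant 3 replicate 1, the library with 274 CPM, though each of the 6 mutant libraries was below the empty vector library of its own batch. Its log2 fold change of -0.22 ± 0.07 did not pass (edgeR adjusted p = 0.0584). Without mutant 3 replicate 1 it did, at -0.27 (adjusted p = 0.00441 by edgeR). It passed as lower in 5 of the 21 alternative settings tried, among them DESeq2 with the same block and edgeR with no filter. Psrc1, a microtubule-binding gene induced by p53, had 21.7, 24.0 and 25.7 CPM in mutant, 28.1 and 37.0 in full-length and 37.8 and 31.5 in empty vector libraries. Mutant libraries were below all others in CPM, though not in TPM. The log2 fold change against the empty vector was -0.54 ± 0.11 (edgeR adjusted p = 0.0124). Btg2, an antiproliferative gene that promotes mRNA decay, had 2.37, 6.86 and 15.8 CPM in mutant, 12.2 and 4.20 in full-length and 5.88 and 1.98 in empty vector libraries. The groups overlapped strongly because batch 1 libraries were high and batch 2 libraries low. Within each batch all 3 mutant libraries were above the empty vector, by a mean log2 difference of 0.75 in batch 2 and 1.09 in batch 1, and the fitted log2 fold change was 0.98 ± 0.26 (edgeR adjusted p = 0.0411). It passed in 6 of the 21 alternative settings tried, and among single libraries left out only without mutant 1 replicate 1 or mutant 2 replicate 2. Plk2 and Plk3, stress-responsive polo-like kinases, had log2 fold changes of -0.31 and -0.27 with SEs of 0.32 and 0.18 and did not pass.

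**Figure D2:**
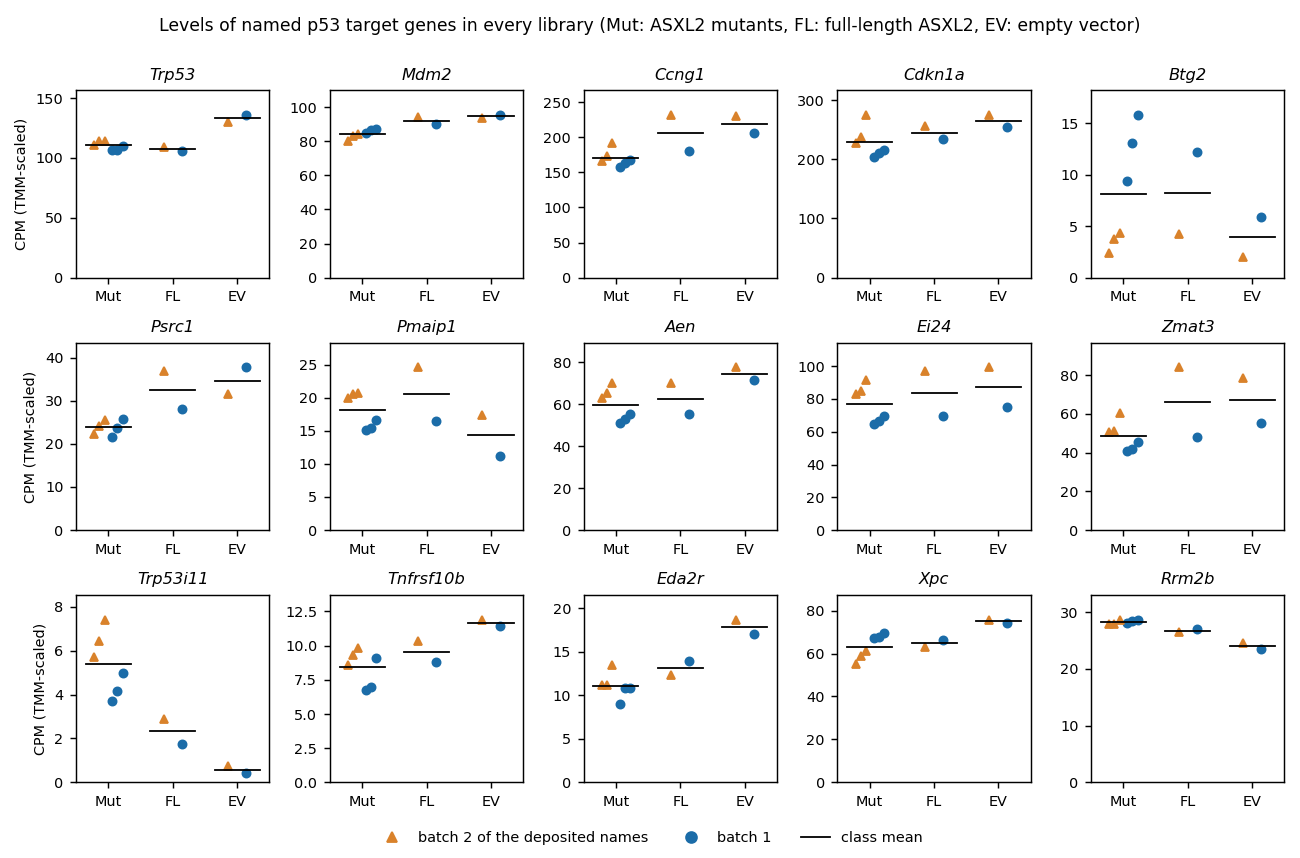
Level of each of the 15 named genes in every library, in TMM-scaled CPM on axes that start at 0, for mutants (Mut), full-length ASXL2 (FL) and empty vector (EV). Triangles are batch 2 and circles batch 1 of the deposited names, and lines are class means; Trp53i11 separates the 3 groups, Eda2r separates the mutants from the empty vector, and Btg2 separates the batches.

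The 11 mitochondrial and other cell death genes split in direction, with 2 higher, 3 lower and 6 that did not pass. Trp53i11 (chr2:93187548-93201759), a p53-inducible gene whose product is associated with the endoplasmic reticulum and cell death, had 3.71 CPM in the lowest, 5.34 in the median and 7.41 in the highest mutant library. The full-length libraries had 1.75 and 2.89 CPM and the empty vector libraries 0.433 and 0.730 CPM. No group overlapped another: mutants were highest, full-length intermediate and empty vector lowest. The log2 fold change of mutants against the empty vector was 3.22 ± 0.19 (edgeR adjusted p = 1.85e-05), a 9.31-fold difference that was present in both batches, at a log2 difference of 3.10 in batch 2 and 3.21 in batch 1. It rests on low counts in the controls, with 23 and 50 estimated counts in the empty vector libraries against 250 to 579 in mutant and 139 and 194 in full-length libraries. It passed in all 21 alternatives, at log2 fold changes of 1.51 to 3.30; the lowest came from a log scale with 1 TPM added, which understates changes of low genes. Of its 8 annotated transcripts, a coding one of 2654 bases carried 58.6% of the gene's mean TPM in mutants, 66.1% in full-length and 64.6% in empty vector libraries. Another coding transcript, of 2703 bases, carried 26.6% in mutants, 13.9% in full-length and 13.5% in empty vector libraries, so both coding forms contributed to the difference.

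**Figure D3:**
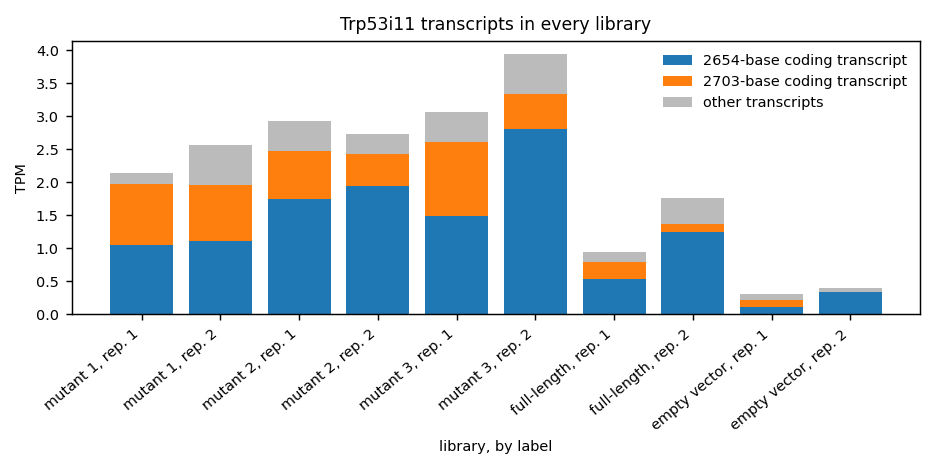
TPM of the Trp53i11 transcripts in every library, stacked; blue is the coding transcript of 2654 bases, orange that of 2703 bases and grey the sum of the others. Total height is 2.14 to 3.94 TPM in mutant libraries, 0.952 and 1.76 in full-length libraries and 0.306 and 0.399 in empty vector libraries.

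Pmaip1, which encodes the BH3-only death protein NOXA, was the other cell death gene that rose. It had 15.1, 18.3 and 20.7 CPM (lowest, median, highest) in mutant, 16.4 and 24.6 in full-length and 11.2 and 17.4 in empty vector libraries. The ranges overlapped across batches, but all mutant libraries were above the empty vector library of their own batch, and the log2 fold change was 0.36 ± 0.08 (edgeR adjusted p = 0.0136). Lower were Aen, Ei24 and Zmat3. Aen, an exonuclease of apoptotic DNA, had 51.2, 59.3 and 70.3 CPM in mutant, 55.2 and 70.1 in full-length and 71.5 and 77.6 in empty vector libraries, so that every library with a construct was below both controls. Its log2 fold change in mutants was -0.33 ± 0.06 (edgeR adjusted p = 0.00574). Zmat3, an RNA-binding gene that regulates splicing and mRNA stability, had 40.6, 48.1 and 60.5 CPM in mutant, 48.1 and 84.1 in full-length and 55.4 and 78.5 in empty vector libraries. Batch 2 values were the higher ones in each group, and the mutants fell by 0.54 in batch 2 and 0.38 in batch 1 on the log2 scale, with a fitted value of -0.46 ± 0.10 (edgeR adjusted p = 0.0217). Ei24, an endoplasmic reticulum gene tied to autophagy, had 64.9, 76.3 and 91.7 CPM in mutant, 69.8 and 97.0 in full-length and 75.4 and 99.4 in empty vector libraries. Its groups overlapped, and its log2 fold change of -0.19 ± 0.05 was small (edgeR adjusted p = 0.0374) and passed in 10 of 21 alternatives. Of the 6 that did not pass, the most abundant were Bax (the pore-forming death effector), Bbc3 (PUMA) and Phlda3 (an inhibitor of AKT), with log2 fold changes of -0.15, 0.10 and -0.31. Apaf1, Perp and Trp53inp1 had -0.02, -0.86 and -0.11, with an SE of 0.55 for Perp.

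Of the 3 death receptor genes, 2 fell. Eda2r (chrX:97333840-97377216), a TNF receptor family gene for ectodysplasin A2, had 9.06 CPM in the lowest, 11 in the median and 13.5 in the highest mutant library, 14.0 and 12.3 CPM in full-length libraries and 17.1 and 18.7 CPM in empty vector libraries. All mutant libraries were below both controls, as were both full-length libraries, and mutants and full-length overlapped. The log2 fold change in mutants was -0.69 ± 0.11 (edgeR adjusted p = 0.00323), and it passed in all 21 alternatives, at values between -0.77 and -0.64. Tnfrsf10b, the mouse TRAIL receptor, had 6.79, 8.84 and 9.83 CPM in mutant, 8.77 and 10.3 in full-length and 11.4 and 11.9 in empty vector libraries. Its mutant libraries were likewise below both controls, with a log2 fold change of -0.47 ± 0.11 (edgeR adjusted p = 0.0230). Fas, the receptor for FAS ligand, did not pass: its log2 fold change was 0.38 ± 0.14, its adjusted p was 0.119 by edgeR, and all mutant libraries were above the empty vector in both batches.

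The 5 DNA repair genes held 1 riser, 1 faller and 3 that did not pass. Rrm2b, the p53-inducible subunit of ribonucleotide reductase, varied little within groups: 27.9, 28.3 and 28.7 CPM (lowest, median, highest) in mutant, 27.0 and 26.5 in full-length and 23.5 and 24.5 in empty vector libraries. No group overlapped another, and the log2 fold change of mutants against the empty vector was 0.24 ± 0.05 (edgeR adjusted p = 0.00937). An antisense gene shares 734 exon bases with it. Xpc, which recognises helix-distorting DNA damage, had 55.0, 64.2 and 69.5 CPM in mutant, 66.4 and 63.1 in full-length and 74.4 and 75.8 in empty vector libraries. Both construct classes were below both controls in CPM, though mutants overlapped controls in TPM. The log2 fold change in mutants was -0.26 ± 0.06 (edgeR adjusted p = 0.0221). Ercc5, Ddb2 and Polk, a nuclease, a damage sensor and a bypass polymerase, did not pass and had values of -0.11, 0.04 and 0.04. None of the 4 stress and metabolism genes passed by edgeR (1 did at an unadjusted p under 0.05, and DESeq2 called 1, Ak1). Gdf15, a secreted stress cytokine, Sesn1, an inhibitor of mTORC1, Ak1, an adenylate kinase, and Dram1, a lysosomal autophagy gene, had log2 fold changes of -0.36, 0.04, -0.60 and 0.11. Gdf15 passed as lower without mutant 3 replicate 1, its highest mutant library, and Ak1 without either full-length library.

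**Figure D4:**
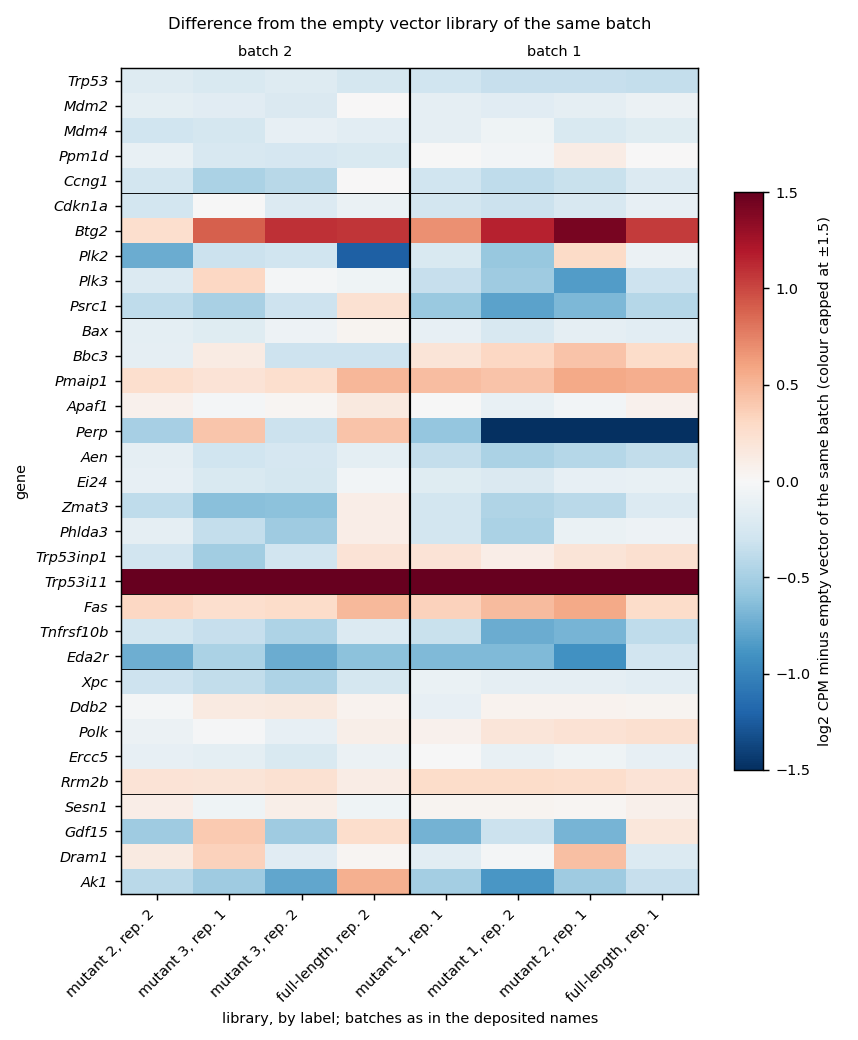
Difference in log2 CPM between each construct library and the empty vector library of the same batch, for all 33 genes (rows) and 8 libraries (columns, batch 2 left and batch 1 right of the black line, full-length last in each). Blue is lower and red higher than the empty vector, with colour capped at 1.5. Trp53i11 is at the cap in all 8 columns; Trp53 and Eda2r are blue in all 8.

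Full-length ASXL2 was set against the same 2 empty vector libraries, so its values are not independent of those of the mutants. Trp53i11 and Pmaip1 rose and Trp53 fell, and the other 30 genes did not pass (edgeR, adjusted p under 0.05). Among all genes 3.85% were higher and 1.22% lower (5.07% in either direction), and the median of the 33 genes was -0.05, against -0.02 over all genes. Trp53 had a log2 fold change of -0.31 ± 0.05 (edgeR adjusted p = 0.00691), beside -0.27 for the mutants. Pmaip1 had 0.52 ± 0.09 (edgeR adjusted p = 0.00828), beside 0.36, and Trp53i11 had 1.99 ± 0.21 (edgeR adjusted p = 0.000657), beside 3.22. The within-batch log2 difference of Trp53i11 was 1.94 in batch 2 and in batch 1. Of the genes that fell in the mutants, Eda2r stood at -0.44, Tnfrsf10b at -0.30, Aen at -0.26 and Xpc at -0.22 with full-length ASXL2, while Ccng1, Psrc1, Ei24, Zmat3 and Mdm2 lay between -0.10 and -0.04. Btg2 had 1.07, close to its value in the mutants, without passing. With no replicate block, or with the labelled batch as the block, 0 of the 33 passed by edgeR, although 3 and 4 had an unadjusted p under 0.05, as did 1477 and 1563 of all genes. The call of Trp53 held in 12 of 21 alternatives, that of Pmaip1 in 14 and that of Trp53i11 in 19. Without the 4 libraries whose mutant number differs, Btg2 passed as higher and Trp53 did not pass. Only Trp53i11 passed without empty vector replicate 1, and likewise without full-length replicate 2; Trp53 did not pass without full-length replicate 1.

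The direct test of mutants against full-length ASXL2 asked whether the mutant forms differ from the intact protein. Trp53i11 alone passed (among all genes, 0.185% were higher and 0.213% lower, 0.399% together), being higher in the mutants at a log2 fold change of 1.23 ± 0.16 (edgeR adjusted p = 0.00953), or 2.35-fold. Within batches the difference was 1.16 in batch 2 and 1.27 in batch 1, and every mutant library was above both full-length libraries. The median over the 33 genes was -0.09, against 0.01 over all genes, and 24 values were negative. At an unadjusted p under 0.05, 12 of the 33 genes passed, against 11.2% of all genes tested. DESeq2 called Trp53i11 and 4 lower genes (Ak1, Ccng1, Psrc1 and Zmat3), beside 1.26% of all genes higher and 1.54% lower. The call of Trp53i11 was lost in 7 of 21 alternatives. These were without full-length replicate 1, when Ak1 and Zmat3 passed instead, without full-length replicate 2, when 0 genes did, with no replicate block, with the labelled batch as the block, with limma on both TPM scales, and without the 4 libraries whose mutant number differs, when Gdf15 passed as lower instead. The genes that fell in the mutants against the empty vector but not with full-length ASXL2 are not shown by this test to differ between the 2 constructs.

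Between the batches of the deposited names, 12 p53 target genes were higher and 9 lower in batch 2 (edgeR, adjusted p under 0.05). Among all genes 26.6% were higher and 25.9% lower. The count of 21 in 33 stands beside 52.4% of all genes tested. The construct comparisons have other numbers of libraries, so such counts do not rank batch against construct. Of the 11 cell death genes 8 were higher in batch 2 and 1 lower, with a median log2 fold change of 0.36, whereas of the 5 DNA repair genes 4 were lower and 0 higher. The 10 genes with the smallest p were Mdm4 (-0.49), Ei24 (0.40), Bax (0.36), Polk (-0.46), Pmaip1 (0.47), Btg2 (-1.75), Sesn1 (-0.31), Aen (0.28), Trp53i11 (0.65) and Ak1 (0.82). Trp53 and Mdm2 did not pass, at 0.04 and -0.03. The split was close to this with DESeq2's size factors in edgeR, at 13 higher and 9 lower. It was unlike this with limma on TPM, which changes the unit and the test together, and the cause was not tested. With limma on log2(TPM + 1), 2 of the cell death genes were higher (Ei24 and Pmaip1) and 3 lower (Apaf1, Bbc3 and Trp53inp1), 4 of the DNA repair genes were lower, 4 of the 33 were higher and 12 lower, all genes split into 1139 higher and 6063 lower, and the median of all genes lay at -0.106 instead of -0.0411. With the libraries split by the labelled batch instead, 0 of the 33 genes and 0 of all genes passed by edgeR, with 2 and 1555 at an unadjusted p under 0.05. Whether the mutants' difference from the empty vector changed between batches was tested as an interaction: 0 of the 33 genes and 0 of all genes passed by edgeR. At an unadjusted p under 0.05, 2 of the 33 and 1761 of all genes did, and DESeq2 called 1 of the 33 (Trp53inp1) and 216 of all genes. The edgeR interaction value of Trp53inp1 was -0.53 ± 0.13. Each batch held 1 empty vector and 1 full-length library, so the spread in these interaction tests came from mutant libraries only. They do not measure variation between control libraries.

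Genes around the p53 pathway that are not among the 33 were followed in 4 further lists. Their counts stand beside 3.99% of all genes tested that fell in the mutants and 6.82% that rose. Of 27 tested p53 regulators and cofactors, 1 fell in the mutants and 0 rose, and the list's median log2 fold change was -0.03. The gene was Cdkn2a, whose p19ARF product restrains MDM2. It averaged 13.4 ± 6.62 CPM in mutant, 16.9 ± 10.7 in full-length and 25.3 ± 8.89 in empty vector libraries (SD; n = 6, 2 and 2), with a log2 fold change of -0.98 ± 0.25 (edgeR adjusted p = 0.0465). Wrap53, the antisense neighbour of Trp53, did not pass, at 0.03. Of 38 tested other p53 targets, 9 fell and 2 rose, with a median of -0.07. The 4 with the smallest p were Sulf2 (an extracellular sulfatase; log2 fold change -2.53), Trp53inp2 (an autophagy gene; 0.52), Sesn2 (an inhibitor of mTORC1; -0.51) and Pvt1 (a long noncoding RNA beside Myc; -0.41). Sulf2 averaged 0.839 ± 0.591 CPM in mutants, 2.56 ± 2.03 with full-length ASXL2 and 4.26 ± 2.33 with the empty vector, and was also lower in mutants than with full-length ASXL2, at -1.63 (edgeR adjusted p = 0.0195). With no replicate block 0 of these 38 passed by edgeR, and without empty vector replicate 1, 1 rose and 1 fell.

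Of 17 tested mitochondrial apoptosis partners, 3 fell and 1 rose in the mutants. Bik, a BH3-only death gene, averaged 2.47 ± 0.563 CPM in mutant, 2.23 ± 0.549 in full-length and 0.825 ± 0.0316 in empty vector libraries, and rose by 1.58 on the log2 scale (edgeR adjusted p = 0.00391). Diablo, an antagonist of caspase inhibitors, the survival gene Bcl2, and Casp8, the initiator caspase of death receptors, had log2 fold changes of -0.20, -0.26 and -0.22. Of 30 cell cycle genes repressed downstream of p21, 0 passed in the mutants by edgeR. At an unadjusted p under 0.05, 9 of the 30 did, beside 25.3% of all genes tested, and DESeq2 called 7 lower, beside 6.5% of all genes. Their median was -0.21, against -0.01 over all genes tested, and 28 of 30 values were negative, as were 9108 of all 17810. These values leaned on 1 control library. Without empty vector replicate 2 the median of the 30 genes was -0.47, and without empty vector replicate 1 it was 0.09. Of these 30, 28 were higher in batch 2 than in batch 1, with a median of 0.40, and 0 were lower. Among all genes tested 26.6% were higher in batch 2 and 25.9% lower. All 30 interaction values were positive (median 0.62), as were 9411 of the 17810 values over all genes. Each of these values rests on 1 empty vector library a batch, and its spread came from mutant libraries only. By edgeR 0 passed, with 26 at an unadjusted p under 0.05 (9.89% of all genes). DESeq2 called 17, beside 0.842% of all genes higher and 0.371% lower. For full-length ASXL2, the calls against the empty vector were Hipk2 (0.42, a kinase of p53), Ephx1 (1.10), Tap1 (0.37), Trp53inp2 (0.39), Pvt1 (-0.36), Bik (1.42) and Diablo (-0.24). In mutants against full-length ASXL2 they were Sulf2 and Tap1 (-0.32).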

How the data were processed

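PolyA RNA was prepared with an Illumina TruSeq kit, per the labels. For each of 115088 transcripts, the authors deposited an estimated count and a TPM value, in kallisto's column layout per the file headers. The authors' tools were kallisto and DESeq2 with the mm10 build, per the submitters' processing notes, which give no versions. Because kallisto divides a read among compatible transcripts, counts of near-identical genes are uncertain. The strand setting is not given in the sources used here.

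Transcripts were summed per gene through GENCODE M21 (GRCm38), where 114200 of them (99.23%) matched, with 99.34 to 99.56% of the counts of each library; 888 were left out. Gene sums of the deposited estimated counts were rounded and tested with edgeR 4.0.16 (R 4.3.3): robust quasi-likelihood, TMM scaling, default filter (10 counts, smallest class of 2), additive block by the batch in the deposited names, Benjamini-Hochberg over 17810 genes, threshold 0.05. One fit over 10 libraries with 3 classes shares 1 spread. Per library, 15671 to 17293 genes reached 10 counts; counting error is large below that. Within-batch differences are of log2 CPM with a prior count of 2. Levels between genes are compared in TPM, as deposited by the authors and summed per gene. Steps were tested on simulated counts.

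The 33 genes, roles and lists were chosen with earlier results of these data known. Of the listed symbols, Fam212b and Trp53rk matched no gene. Named with the value of every library are genes past the threshold in any comparison of constructs, and Trp53, Mdm2 and Cdkn1a; for batch, the 10 with the smallest p; otherwise up to 3 examples a role by TPM, and up to 4 called genes a list. Gdf15, Ak1 and others outside this rule are named where they decide a count.

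Whether replicate numbers pair the libraries was checked by the correlation of deviations from group means. By label, 3 pairs of groups lay between 0.491 and 0.578 and the other 7 between -0.145 and 0.017. By the batch of the deposited names, mutants and full-length correlated at 0.64, mutants and empty vector at 0.571, and full-length and empty vector at 0.525. The last value is the same by label, since full-length and empty vector libraries have the same batch in name and label, so it cannot choose between the 2. The mutant values by name rest on means of 3 libraries a batch, and those by label on single libraries. The block by the deposited names was set in advance and was not chosen from these values. Alternatives were no replicate block, a block by the labelled batch, DESeq2 1.42.0 and its size factors, other filters (none; 1 CPM in 4 libraries), limma 3.58.1 on log2(TPM + 1) and log2(TPM + 0.1), fewer libraries, and each library left out. Tables and figures were made in Python 3.11.15 with matplotlib 3.10.9, pandas 2.3.3 and numpy 2.4.6.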

Additional observations from a re-analysis of the deposited data

Results flagged for a closer look

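Gdf15 stood out in 1 library: among the 6 mutant libraries, mutant 3 replicate 1 had 71.0 CPM, far above the next highest at 37.5 CPM, and the lowest had 19.5 CPM. The gap was 0.65 of the whole range, above Dixon's critical value for 6 samples. Chance flags about 1 group in 20; 33 genes were screened and 1 was flagged. The 6 libraries span both batches of the deposited names, and Gdf15 was 2.04-fold higher in batch 2 than in batch 1. The full-length libraries had 35.7 and 64.6 CPM and the empty vector libraries 31.8 and 54.0 CPM. The same library also had the highest Cdkn1a among the mutants, at 274 CPM, and it is 1 of the 2 libraries whose batch differs between name and label.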

How the results depend on the processing

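Counts are of the 33 genes, then of all genes, at an adjusted p under 0.05. For the mutants against the empty vector (14 and 1925 in the reported fit) they were 2 and 311 with no replicate block, 2 and 335 with the labelled batch as the replicate block, 2 and 707 with limma on log2(TPM + 1), 3 and 829 with limma on log2(TPM + 0.1), and 4 and 567 without the 4 libraries with another mutant number in their name. Leaving out 1 library at a time gave 3 to 15 and 494 to 2042. For full-length ASXL2 and the empty vector (3 and 903) the same 5 settings gave 0 and 134, 0 and 129, 1 and 259, 1 and 321, and 3 and 446, where the 3 include Btg2 and not Trp53. With only the libraries compared, the genes called were Btg2 and Trp53i11, and neither Pmaip1 nor Trp53 passed. DESeq2 called 6 and 1517, only the libraries compared gave 2 and 427, and leaving out 1 library gave 1 to 4 and 285 to 1047. For mutants against full-length ASXL2 (1 and 71) the 5 settings gave 0 and 0, 0 and 1, 0 and 23, 0 and 17, and 1 and 7, where the 1 is Gdf15 (lower) and not Trp53i11. DESeq2 called 5 and 499, no filter gave 2 and 183, leaving out the 2 libraries with another batch in their name gave 2 and 136, and leaving out 1 library gave 0 to 2 and 2 to 111. At an unadjusted p under 0.05 and with no replicate block, 3 and 1477 passed for full-length ASXL2, and 4 and 720 for mutants against full-length. For batch 2 against batch 1 (21 and 9338), the labelled batch in its place gave 0 and 0 (2 and 1555 at an unadjusted p under 0.05), leaving out the 4 libraries gave 13 and 5268, and leaving out 1 library gave 19 to 23 and 8160 to 9105. For the interaction, DESeq2 called 1 of the 33 (0 by edgeR), and leaving out 1 library gave 0.

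Values that changed sign were small and did not pass. Between mutants and full-length ASXL2, Btg2 stood at 0.13 with the labelled batch as the block and Rrm2b at -0.07 and -0.08 with the 2 TPM scales. Between batches, Eda2r stood at -0.01 with the labelled batch, and Trp53, Psrc1 and Rrm2b stood at -0.02, -0.02 and -0.06 with the stricter filter, at -0.12, -0.23 and -0.13 with limma on log2(TPM + 1), and at -0.12, -0.24 and -0.14 with limma on log2(TPM + 0.1). With libraries left out in turn and full-length ASXL2 set against the empty vector, Mdm2 ranged over -0.11 to 0.02, Ccng1 over -0.23 to 0.01, Psrc1 over -0.34 to 0.12 and Zmat3 over -0.28 to 0.15. Likewise, mutants against full-length gave -0.24 to 0.04 for Btg2 and -0.09 to 0.00 for Xpc, and batch gave -0.03 to 0.14 for Psrc1 and 0.00 to 0.03 for Rrm2b. The cause of these shifts was not tested. In mutants against the empty vector none of the 15 named genes changed sign in the 21 alternatives. Low counts limit Perp, Plk2, Dram1 and, in the controls, Trp53i11. Where leaving out 1 library left a class with 1, that library is assumed to vary like the other classes. For batch 2 against batch 1, the alternative with no replicate block was not run, since it removes the batch term being tested, and the interaction could not be fitted without either empty vector library.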
